A study of Mus musculus with 9 samples.

Results

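The core cardiac transcription factors are the proteins that switch on heart genes in the embryo and keep them on in the adult heart muscle cell. The members are Gata4, Gata6, Nkx2-5, Tbx5, Tbx20, Hand1, Hand2, Irx4, Myocd and Zfpm2. They were chosen by name, and every probe set of the array that is annotated to one of these 10 gene symbols was taken, which gave 21 probe sets of the 45037 that are not controls. The 10 genes are among 18193 with a probe set of their own. A probe set is a group of short probes that together measure one stretch of a transcript.

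Expression was measured on 1-colour Affymetrix arrays in 3 groups of mouse cells with 3 arrays each, called biological replicates in the labels. CiCM are cardiomyocyte-like cells that were induced by chemicals. They were obtained by treating mouse embryonic fibroblasts with 10 µM CHIR99021, 10 µM RepSox, 50 µM Forskolin, 0.5 mM VPA, 5 µM Parnate and 1 µM TTNPB, and beating clusters were picked on day 24. The cardiomyocytes (CM) were isolated from mouse hearts, with no age or strain in the labels. The fibroblasts (MEF) came from C57BL/6 embryos at E13.5, where E stands for the embryonic day. The picked clusters are a selected fraction of a treated culture, and no transgene or other agent is named for any group. Per the labels, CM came from heart and MEF from embryos, and only CiCM received the chemicals.

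GATA4 and GATA6 are zinc finger proteins, NKX2-5 and IRX4 homeodomain proteins, TBX5 and TBX20 T-box proteins, and HAND1 and HAND2 basic helix-loop-helix proteins. They bind DNA side by side at heart enhancers and switch on one another as well as genes of the contractile apparatus. MYOCD (myocardin) does not bind DNA itself but works through the serum response factor SRF, in heart and in smooth muscle. ZFPM2, also named FOG2, binds GATA4 and either strengthens or restrains it. Combinations of GATA4, TBX5, HAND2 and the MEF2 factor MEF2C have been used to turn fibroblasts into cardiomyocyte-like cells by gene transfer. Most of these genes are also used outside heart muscle. GATA6 is also made in endoderm and smooth muscle, TBX5 in the forelimb, and HAND2 in limb and neural crest.

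Promoter sequence was examined gene by gene for 4 of the 10 genes, Hand2, Tbx20, Irx4 and Nkx2-5, and not for the other members. Hand2 and Tbx20 are shown: Hand2, because its probe sets went different ways in the induced cells, and Tbx20, because it differed most between heart cells and fibroblasts. Each run holds the 250 bases before the transcript start, from RefSeq (GRCm38.p6). The Hand2 run is chr8:57320733-57320982 on the plus strand and the Tbx20 run is chr9:24774304-24774553 on the minus strand. Capitals mark matches to the motifs searched for.
Hand2: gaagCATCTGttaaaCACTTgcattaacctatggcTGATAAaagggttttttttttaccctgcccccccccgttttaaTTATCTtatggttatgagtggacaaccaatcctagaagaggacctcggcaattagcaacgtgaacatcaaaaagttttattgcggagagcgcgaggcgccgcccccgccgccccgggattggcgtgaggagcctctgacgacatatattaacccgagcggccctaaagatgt
Tbx20: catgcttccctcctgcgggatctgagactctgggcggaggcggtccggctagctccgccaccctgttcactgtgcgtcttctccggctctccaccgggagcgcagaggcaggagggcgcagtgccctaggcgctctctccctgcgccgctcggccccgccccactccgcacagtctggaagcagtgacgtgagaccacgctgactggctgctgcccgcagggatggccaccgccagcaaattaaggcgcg

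The motifs, searched on both strands, were AGATAA or TGATAA for GATA factors, AAGTG for NKX2-5, AGGTGT for T-box factors and CATCTG for HAND factors. The Hand2 run held a GATA match starting 215 bases before the transcript start and another, on the opposite strand, starting 172 bases before it. It also held an NKX match at 235 bases and a HAND match at 246 bases. No 2 of these matches overlapped. No capital appears in the Tbx20 run, and no motif was found in the Irx4 and Nkx2-5 windows of the same length. Among all 32851 promoter windows of this length, 16.6% held the GATA motif, 40.7% the NKX motif, 11.8% the T-box motif and 14.4% the HAND motif, so the matches are a description and mark no bound site.

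Values are the deposited log2 signals, so a difference of 1 is a doubling. Levels are compared between groups for 1 probe set at a time and never between probe sets. A probe set was tested if its highest group mean reached 6.58, the median of the table, and 26547 did. Of the 21 member probe sets 18 were tested. Both Hand1 probe sets and 1 of 3 Hand2 probe sets lay under that line and are described without a call. Of the 18, 13 passed only through their CM mean, so for the comparisons with CM the filter itself favours a difference. In the gene lists used below, genes that passed only through 1 group are favoured in the same way. A call needed an adjusted p under 0.05 (limma, Benjamini-Hochberg over all tested probe sets) and an absolute log2 difference of at least 1. With 3 arrays a group, the smallest p of an exact permutation test is 0.1, so each call rests on the spread that limma shares between probe sets. These are whole-sample RNA measurements, in which fewer cells of a type and less RNA per cell cannot be told apart.

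Within groups, pairs of arrays had a mean Pearson r of 0.960 for CiCM, 0.935 for CM and 0.969 for MEF across probe sets, which are not independent replicates. Array medians lay between 6.41 and 6.53 in CiCM, between 6.75 and 6.85 in CM and between 6.37 and 6.53 in MEF. Centring on them moved every difference by -0.06 for CiCM minus MEF, -0.37 for CM minus MEF and 0.31 for CiCM minus CM. Levelling on the hybridisation controls moved them by -0.23, -0.80 and 0.58. Neither turned the sign of a called member difference. CM replicate 1 stood apart in atrial and epicardial genes. The mean log2 signal of 12 atrial genes, Tbx5 among them, was 11.74 there, and 8.91 and 7.63 in CM replicates 2 and 3. That of 9 epicardial genes was 9.19 there, and 7.05 and 6.35 in the other 2. Cardiomyocyte markers were called higher in CM than in MEF in 14 of 14 cases, with array means between 9.46 and 9.84 in CiCM, between 14.70 and 14.85 in CM and between 4.90 and 5.46 in MEF. Endothelial genes had array means between 4.97 and 5.25 in CiCM, between 10.73 and 10.83 in CM and between 5.23 and 5.93 in MEF, and 10 of 10 were called higher in CM than in MEF. Fibroblast genes had array means between 12.74 and 12.82 in CiCM, between 10.75 and 11.09 in CM and between 12.87 and 12.90 in MEF, and 13 of 15 were called lower in CM than in MEF. Among all genes by leading probe set, 22.2% were called higher and 21.9% lower in CM than in MEF. Several of the endothelial and cardiomyocyte genes, Cdh5 and Ryr2 among them, were tested only through their CM mean, which favours such calls. The part of the endothelial and fibroblast transcripts in the members' differences was not tested.

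Most core factor probe sets were called higher in heart cells than in fibroblasts. Most were not called between induced cells and fibroblasts, which does not show that their levels were equal. In CiCM against MEF, 2 of the 21 member probe sets were called higher, 3 were called lower and 13 were tested without a call. Among all probe sets tested, 11.8% were called higher and 12.2% lower in that comparison, so the members' 11.1% and 16.7% of 18 lay near the background. In CM against MEF, 16 of 21 were called higher and none lower, against a background of 24.0% higher and 21.6% lower. In CiCM against CM, all 18 tested probe sets were called lower and none higher, against 20.4% lower and 15.8% higher among all. As 13 of the 18 passed the filter only through their CM mean, the filter favours a difference in both comparisons with CM. It does not enter the overlap of single arrays. All 3 CM arrays lay above all 3 MEF arrays in 19 of 21 member probe sets, a pattern seen in 28.1% of all 45037, and below them in none (23.9% of all). All CiCM arrays lay below all CM arrays in the same number, 19 of 21 (25.3% of all), and above them in none (20.2% of all). CiCM arrays lay wholly above MEF arrays in 2 (21.1% of all) and wholly below them in 6 (23.1% of all). The median difference over the 21 probe sets was -0.45 for CiCM minus MEF, 3.13 for CM minus MEF and -3.94 for CiCM minus CM, beside -0.01, 0.17 and -0.15 over all probe sets. CiCM minus CM and CM minus MEF share the CM arrays, and the first and second comparisons share the MEF arrays.

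**Figure D1:**
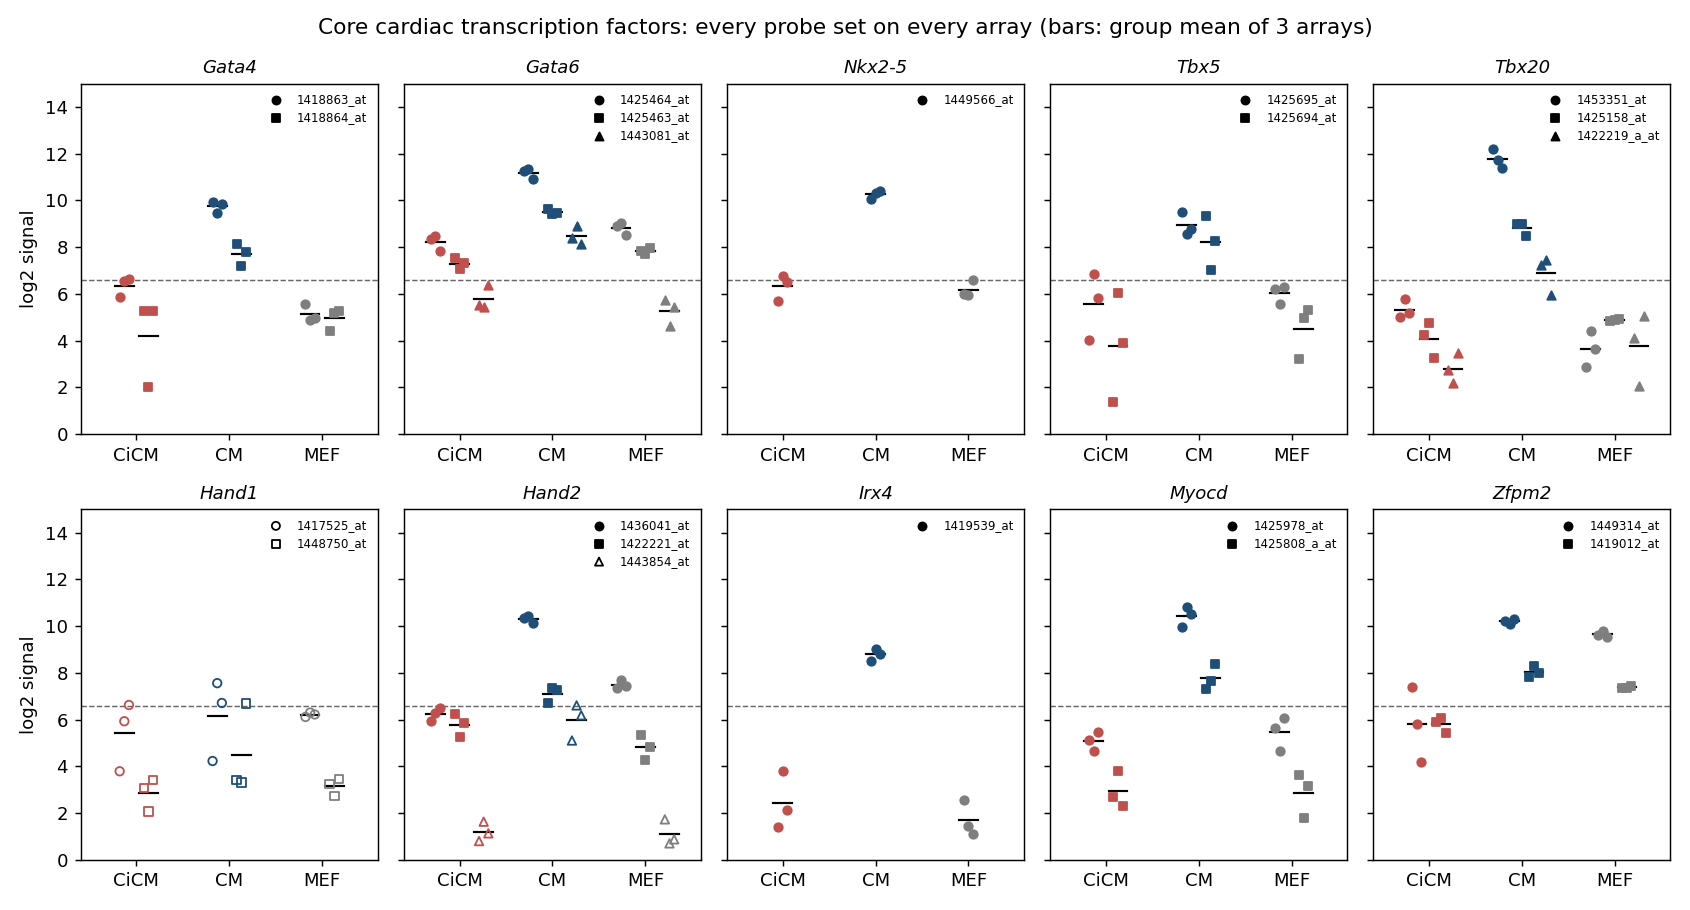
Each panel is 1 gene, the y axis is the log2 signal, and points are single arrays of CiCM (red), CM (blue) and MEF (grey), with a black bar at each mean of 3 arrays. Marker shapes separate the probe sets, open markers lie under the filter and the dashed line marks 6.58; the CM points stand above both other groups in 19 of 21 probe sets, while CiCM and MEF points overlap in 13 of 21.

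The GATA factors were highest in heart cells, and in CiCM against MEF 1 Gata4 probe set was called higher and no Gata6 probe set was called. Gata4 (Entrez Gene 14463), which opens heart enhancers and binds most of the other members, has 2 probe sets. The first, 1418863_at, read 5.86, 6.54 and 6.64 in CiCM, 9.94, 9.48 and 9.85 in CM, and 5.56, 4.89 and 4.97 in MEF. All 3 CiCM arrays lay above the MEF arrays but far under the CM arrays. The difference was 1.21 ± 0.30 for CiCM minus MEF (SE; limma adjusted p = 0.00670) and -3.41 ± 0.30 for CiCM minus CM (limma adjusted p = 3.37e-06). The second, 1418864_at, read 5.27, 2.02 and 5.27 in CiCM, 8.14, 7.19 and 7.80 in CM, and 4.43, 5.16 and 5.27 in MEF. Here CiCM and MEF overlapped, and CiCM replicate 2 was the lowest of all arrays (without it the difference was 0.32). Its CiCM minus MEF difference was -0.76, with a 95% interval from -2.56 to 1.03 (limma adjusted p = 0.470). The higher call of Gata4 in CiCM thus rests on 1 of its 2 probe sets, and it was lost with 32 added to the linear signals (0.76) or arrays levelled on hybridisation controls (0.98). In CM against MEF both probe sets were called higher, by 4.62 ± 0.30 and 2.75 ± 0.81 (SE; limma adjusted p = 1.81e-07 and 0.0112).

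Gata6 (Entrez Gene 14465), a close relative of Gata4 that can stand in for it in part, was well measured in all groups. Probe set 1425464_at read 8.36, 8.47 and 7.83 in CiCM, 11.25, 11.36 and 10.93 in CM, and 8.90, 9.03 and 8.52 in MEF. Fibroblasts thus already carried the transcript, and the CiCM arrays lay just under the MEF arrays without overlap. The difference for CiCM minus MEF was -0.59 ± 0.20 (SE; limma adjusted p = 0.0303), under the minimum size for a call. Probe set 1425463_at read 7.52, 7.06 and 7.31 in CiCM, 9.64, 9.40 and 9.44 in CM, and 7.83, 7.69 and 7.98 in MEF, again with CiCM lowest. It gave -0.54 ± 0.17 (limma adjusted p = 0.0254), also under that size, while 1443081_at, at 5.54, 5.44 and 6.39 in CiCM, 8.39, 8.90 and 8.12 in CM, and 5.74, 4.62 and 5.45 in MEF, gave 0.52 with overlapping arrays (limma adjusted p = 0.320). All 3 were called higher in CM than in MEF, by 2.37, 1.66 and 3.20, and lower in CiCM than in CM, with differences of -2.96, -2.20 and -2.68. Fold changes of CM over MEF were 5.16, 3.16 and 9.18 on the linear scale. With arrays levelled on the hybridisation controls, 1425463_at was 0.86 in CM minus MEF and no longer called. The largest adjusted p of these 6 tests was 0.000203 (limma), for 1443081_at in CiCM minus CM.

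Zfpm2 (Entrez Gene 22762), the GATA cofactor, was the member that fell most in the induced cells. Its leading probe set, 1449314_at, read 7.39, 5.83 and 4.19 in CiCM, 10.22, 10.10 and 10.29 in CM, and 9.64, 9.81 and 9.55 in MEF. The CiCM arrays spread over more than 3 log2 units, yet each lay below every array of both other groups. The difference was -3.86 ± 0.58 for CiCM minus MEF (SE; limma adjusted p = 0.000310) and -4.40 ± 0.58 for CiCM minus CM (limma adjusted p = 7.53e-05). The second probe set, 1419012_at, read 5.89, 6.07 and 5.44 in CiCM, 7.82, 8.28 and 8.0 in CM, and 7.35, 7.37 and 7.43 in MEF. It was lower in CiCM too, by -1.58 ± 0.25 against MEF (limma adjusted p = 0.000433) and by -2.23 ± 0.25 against CM (limma adjusted p = 2.19e-05). Zfpm2 was the only member whose probe sets were all called, in the same direction, in CiCM against MEF. It was also the only tested member not called in CM against MEF, where the differences were 0.54 (95% interval -0.75 to 1.83) and 0.65 (0.096 to 1.21). With arrays levelled on the hybridisation controls these turned to -0.27 and -0.15. Of 10 macrophage genes all 10 were called lower in CiCM than in MEF, beside 12.3% of all genes. Their array means were 7.04 to 7.58 in CiCM, 9.60 to 10.28 in CM and 10.75 to 10.80 in MEF. These genes shared the order of Zfpm2 over CiCM and MEF, and their part in its difference was not tested.

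The homeodomain genes were heart-cell transcripts with no called change in the induced cells. Nkx2-5 (Entrez Gene 18091), an early marker of heart precursors, has 1 probe set, 1449566_at. It read 5.68, 6.77 and 6.51 in CiCM, 10.06, 10.32 and 10.40 in CM, and 5.98, 5.94 and 6.57 in MEF. CiCM and MEF arrays overlapped, and the CM arrays stood at least 3 log2 units above both. The CiCM minus MEF difference was 0.16, with a 95% interval from -0.50 to 0.82 (limma adjusted p = 0.696). CM was higher than MEF by 4.09 ± 0.30, a 17.1-fold difference (limma adjusted p = 4.54e-07), and CiCM minus CM was -3.94 ± 0.30 (limma adjusted p = 1.15e-06).

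Irx4 (Entrez Gene 50916) marks the ventricle and restrains atrial genes there. Its probe set, 1419539_at, read 1.38, 3.79 and 2.12 in CiCM, 8.51, 9.03 and 8.83 in CM, and 2.54, 1.43 and 1.11 in MEF. The CiCM and MEF readings lie at the bottom of the scale, where signals are noisy, and they overlapped. The differences were 7.10 ± 0.95 for CM minus MEF and -6.36 ± 0.95 for CiCM minus CM (SE; limma adjusted p = 5.87e-05 and 0.000185). With 32 added to the linear signals they were 3.74 and -3.62, so the size of these differences depends on how readings near the floor are treated. CiCM minus MEF was 0.74, with a wide 95% interval from -1.37 to 2.84 (limma adjusted p = 0.557).

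The T-box genes were both high in heart cells, and in CiCM against MEF the probe sets of Tbx20, but not those of Tbx5, went different ways. Tbx5 (Entrez Gene 21388), which drives conduction and atrial genes and is altered in Holt-Oram syndrome, has 2 probe sets. Probe set 1425695_at read 4.03, 6.85 and 5.84 in CiCM, 9.51, 8.55 and 8.80 in CM, and 6.19, 5.57 and 6.30 in MEF. Probe set 1425694_at read 1.35, 6.05 and 3.90 in CiCM, 9.32, 7.03 and 8.28 in CM, and 3.21, 4.97 and 5.29 in MEF. CiCM replicate 1 was lowest and replicate 2 highest of the CiCM arrays in both, and CM replicate 1 was the highest array in both. Neither probe set was called in CiCM against MEF, with differences of -0.45 (95% interval -1.77 to 0.88) and -0.73 (-3.15 to 1.70), and without CiCM replicate 1 they turned to 0.32 and 0.48. In CiCM minus CM they were -3.38 and -4.44, both called lower (limma adjusted p = 0.000605 and 0.00495). Both were called higher in CM than in MEF, by 2.93 and 3.72 (limma adjusted p = 0.00124 and 0.0112). Without CM replicate 1, the array with the high atrial genes, these were 2.65 and 3.16, both still called (limma adjusted p = 0.00520 and 0.0440).

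Tbx20 (Entrez Gene 57246), needed for chamber growth and for adult heart muscle function, was among the members with the steepest contrast. Probe set 1453351_at read 5.02, 5.78 and 5.18 in CiCM, 12.21, 11.72 and 11.39 in CM, and 2.84, 4.39 and 3.62 in MEF. CM minus MEF was 8.16 ± 0.41, the largest difference of any member probe set there (SE; limma adjusted p = 2.64e-08), and 6.29 with 32 added. The CiCM arrays lay above the MEF arrays without overlap, and the difference of 1.71 ± 0.41 was called (limma adjusted p = 0.00551). All 6 of those readings were under 6.58, and the call was lost with 32 added (0.69) or with only CiCM and MEF in the fit (limma adjusted p = 0.0595). The other 2 probe sets pointed the other way without a call. Probe set 1425158_at read 4.23, 4.75 and 3.24 in CiCM, 9.01, 9.01 and 8.46 in CM, and 4.81, 4.88 and 4.92 in MEF, a CiCM minus MEF difference of -0.80 (limma adjusted p = 0.175). Probe set 1422219_a_at read 2.72, 2.20 and 3.48 in CiCM, 7.22, 7.44 and 5.97 in CM, and 4.12, 2.07 and 5.05 in MEF, and gave -0.95 with overlapping arrays (limma adjusted p = 0.456). Its call in CM against MEF (3.13, limma adjusted p = 0.0149) was lost without CM replicate 1 (2.96, limma adjusted p = 0.0534) or CM replicate 2 (2.85, limma adjusted p = 0.0662). All 3 probe sets were called lower in CiCM than in CM, with differences of -6.45, -4.75 and -4.08.

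The HAND genes differed from each other. Hand2 (Entrez Gene 15111), needed for the right ventricle in the mouse embryo, has 3 probe sets, and its promoter run with 2 GATA matches is printed above. Probe set 1436041_at read 5.94, 6.28 and 6.51 in CiCM, 10.37, 10.43 and 10.15 in CM, and 7.35, 7.71 and 7.44 in MEF. The groups did not overlap, and the order was CM, MEF, CiCM from high to low. CiCM minus MEF was -1.25 ± 0.20 (SE; limma adjusted p = 0.000379), and with 32 added it was -0.98, just under the minimum size. Probe set 1422221_at read 6.24, 5.27 and 5.85 in CiCM, 6.71, 7.33 and 7.26 in CM, and 5.35, 4.26 and 4.81 in MEF. Here CiCM was nominally above MEF with 1 CiCM array inside the MEF range, a difference of 0.98 that was not called (95% interval -0.02 to 1.98). Its CiCM minus CM difference of -1.32 (limma adjusted p = 0.0270) lost its call under 10 of 21 alternatives, among them leaving out CiCM replicate 2 or 3 or CM replicate 2 or 3. The third, 1443854_at, lay under the filter at 0.80, 1.63 and 1.13 in CiCM, 5.10, 6.61 and 6.18 in CM, and 1.72, 0.70 and 0.87 in MEF. All 3 probe sets had every CM array above every CiCM and MEF array, and they differed on CiCM against MEF alone.

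Hand1 (Entrez Gene 15110), which marks the left ventricle in the embryo, stayed under the filter in all groups. Probe set 1417525_at read 3.79, 5.93 and 6.62 in CiCM, 4.22, 7.56 and 6.71 in CM, and 6.11, 6.30 and 6.22 in MEF. Probe set 1448750_at read 3.06, 2.06 and 3.40 in CiCM, 3.42, 3.30 and 6.69 in CM, and 3.23, 2.72 and 3.46 in MEF. The groups overlapped in both, and these were the 2 member probe sets in which CM arrays did not stand apart. Without the filter, the differences were -0.76 and -0.30 for CiCM minus MEF, -0.04 and 1.33 for CM minus MEF, and -0.72 and -1.63 for CiCM minus CM (smallest limma adjusted p = 0.253).

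Myocd (Entrez Gene 214384), the SRF coactivator, was high in heart cells alone. Probe set 1425978_at read 5.12, 4.64 and 5.45 in CiCM, 9.96, 10.83 and 10.52 in CM, and 5.64, 4.66 and 6.05 in MEF. Probe set 1425808_a_at read 2.67, 3.79 and 2.30 in CiCM, 7.30, 7.63 and 8.39 in CM, and 3.61, 1.77 and 3.15 in MEF. In both, CiCM and MEF arrays were mixed and CM arrays lay far above. CiCM minus MEF was -0.38 (95% interval -1.25 to 0.49) and 0.08 (-1.82 to 1.98), and neither was called. CM exceeded MEF by 4.99 ± 0.39 and 4.93 ± 0.86 (SE; limma adjusted p = 8.45e-07 and 0.000412), with 32 added 4.20 and 2.66. CiCM minus CM was -5.37 and -4.85 (limma adjusted p = 9.06e-07 and 0.000604).

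**Figure D2:**
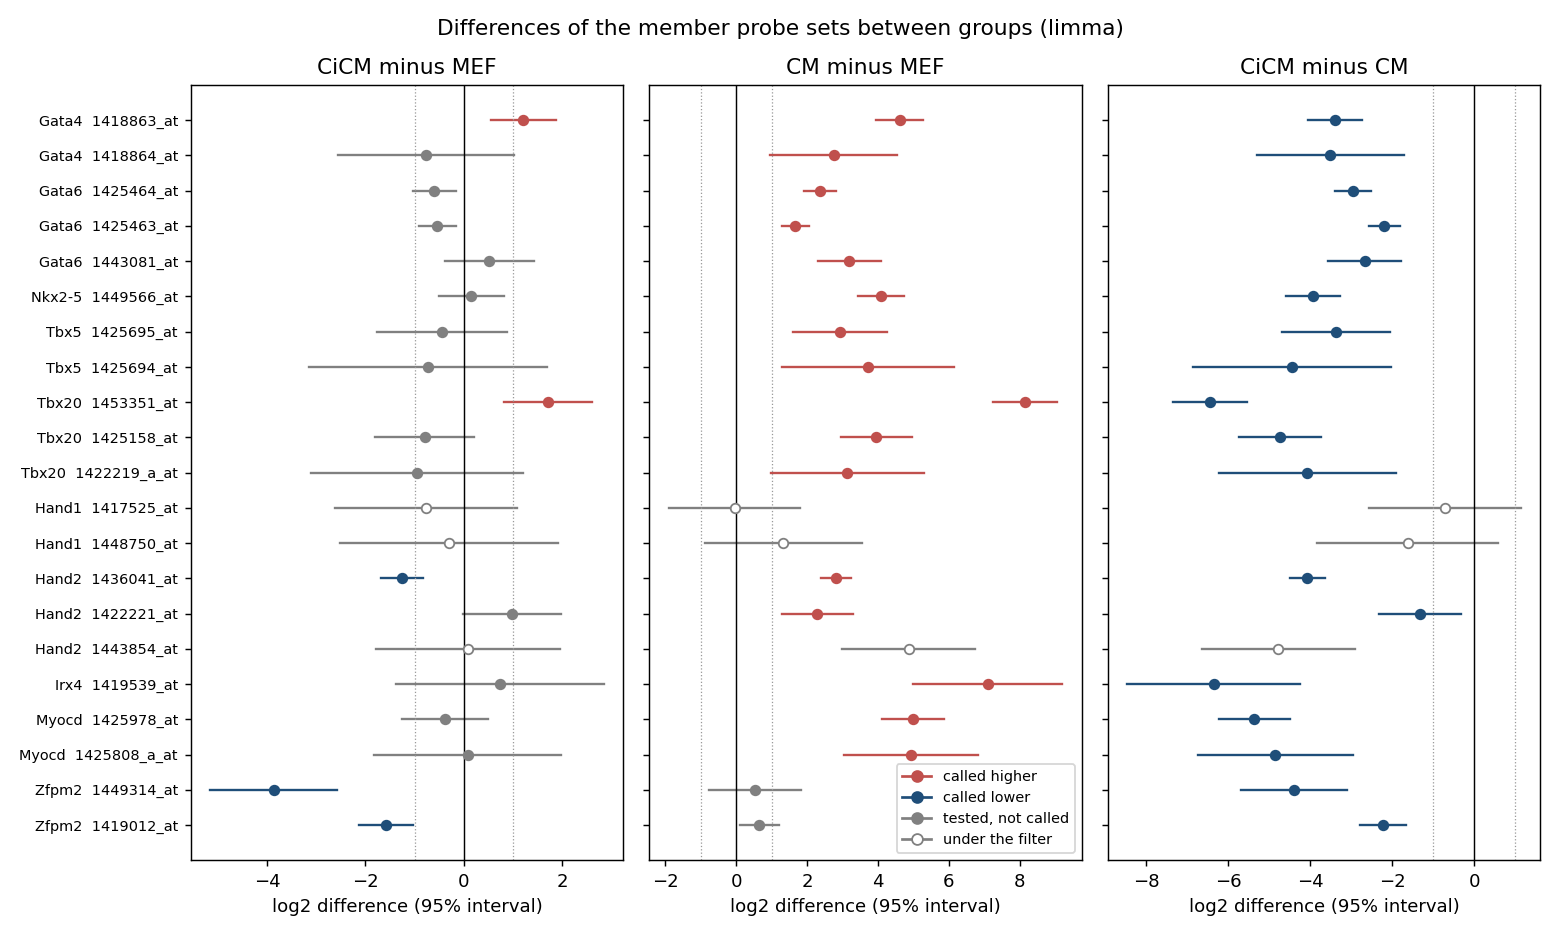
Rows are the 21 member probe sets, the x axes are log2 differences with 95% intervals, and the panels are CiCM minus MEF, CM minus MEF and CiCM minus CM; dotted lines mark differences of 1 in either direction. Filled red points were called higher (2, 16 and 0 by panel), filled blue points lower (3, 0 and 18), grey points were not called and open points lay under the filter, with intervals from the fit without a filter.

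Counted by gene, with the probe set of the highest mean standing for each, Gata4 and Tbx20 were called higher and Hand2 and Zfpm2 lower in CiCM against MEF. These 2 and 2 of 9 tested genes stand beside 11.6% called higher and 12.3% called lower among all 12559 genes taken by their leading probe set. When the probe sets of a gene were averaged instead, Zfpm2 was the 1 member called (-2.72, limma adjusted p = 0.000211). The averaged differences of Gata4, Tbx20 and Hand2 were 0.22, -0.01 and -0.06 (limma adjusted p = 0.702, 0.986 and 0.910). In CM against MEF, 8 of 9 tested genes were called higher either way (22.2% of all genes by leading probe set), and in CiCM against CM all 9 were called lower either way (19.1% of all genes).

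The order of the levels was the same in most members. For Gata4, Gata6, Nkx2-5, Tbx5, Tbx20, Irx4 and Myocd, CM was highest by every probe set, and CiCM and MEF did not differ by a call in 12 of 14 of them. For Zfpm2, CM and MEF were not separated by a call and CiCM was lowest. For Hand2, CM was highest and the place of CiCM and MEF depended on the probe set.

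Within CM, the members did not all follow 1 array. CM replicate 1, high in atrial genes, held the highest CM reading of both Tbx5 probe sets, both Gata4 probe sets, 1425463_at for Gata6, and 1453351_at and, narrowly, 1425158_at for Tbx20. It held the lowest CM reading of Irx4, Nkx2-5, both Myocd probe sets, 1422221_at and 1443854_at for Hand2, 1417525_at for Hand1 and 1419012_at for Zfpm2. Of 18 member probe sets tested, 15 were called higher in CM than in MEF without CM replicate 1, against 16 with it, and all 18 remained lower in CiCM than in CM.

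Other heart regulators were called in both directions in the induced cells. Of 35 further factors and cofactors written down for this purpose, 33 were on the array with a probe set of their own and 29 were tested. Of these, 12 were called higher and 6 lower in CiCM against MEF, beside the same 11.6% and 12.3% of all genes, and the median was 0.33. Smyd1, a histone methyltransferase of striated muscle, was higher by 6.25 and Mef2c by 5.27. Both are also active in skeletal muscle, and all 12 tested genes of a skeletal muscle list were called higher in CiCM as well, with array means between 11.17 and 11.55 in CiCM, between 4.94 and 5.57 in CM and between 4.10 and 4.29 in MEF. Among them were the myogenic factors Myod1 (5.90) and Myog (8.56), and the part of skeletal muscle transcripts in these differences was not tested. Several of the 12, Myod1 and Myog included, passed the filter only through their CiCM mean, so the filter favours a difference there. The list has 15 genes, and Myf5, Pax3 and Pax7 lay under the filter. Their CiCM minus MEF differences were 0.10, -0.55 and -1.10. Isl1, a factor of second heart field precursors, read 7.34, 7.48 and 7.32 in CiCM, 4.08, 4.48 and 3.29 in CM, and 4.63, 6.19 and 4.95 in MEF. The CiCM arrays thus lay above all others, with a difference of 2.12 against MEF (limma adjusted p = 0.00942) and 3.43 against CM (limma adjusted p = 0.000328), the second being 2.05 with 32 added to the linear signals. Tbx3, a repressor of working heart muscle genes in the conduction system, was higher by 2.30 against MEF and by 1.21 against CM, and without CM replicate 2 the second was 0.96 and not called. Srf, the partner of Myocd, was -0.65 against MEF, under the minimum size, and was called lower against CM (-1.05). That call ended with arrays centred on their medians (-0.74), with arrays levelled on the hybridisation controls (-0.48) and without CM replicate 1 (-0.95). Irx1 (-3.44) and Foxc2 (-3.19) were called lower in CiCM against MEF.

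The same list was mixed in heart cells. In CM against MEF 14 of 29 were called higher and 4 lower, beside 22.2% and 21.9% of all genes, with a median of 0.98. Smyd1 (7.45), Hopx (6.34), Esrrg (5.74) and Prox1 (4.14) were highest, and Isl1 was -1.31 without a call (limma adjusted p = 0.0564). Levelling on the hybridisation controls gave 9 of each direction there. In CiCM against CM, 4 were called higher and 10 lower, or 8 and 7 after that levelling, beside 16.6% and 19.1% of all genes. Hopx, a homeodomain protein without DNA binding that acts downstream of NKX2-5, was lower by -6.83. Its readings were 7.0, 7.90 and 7.23 in CiCM, 13.95, 14.41 and 14.26 in CM, and 7.95, 7.69 and 7.94 in MEF, so CM alone stood high.

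**Figure D3:**
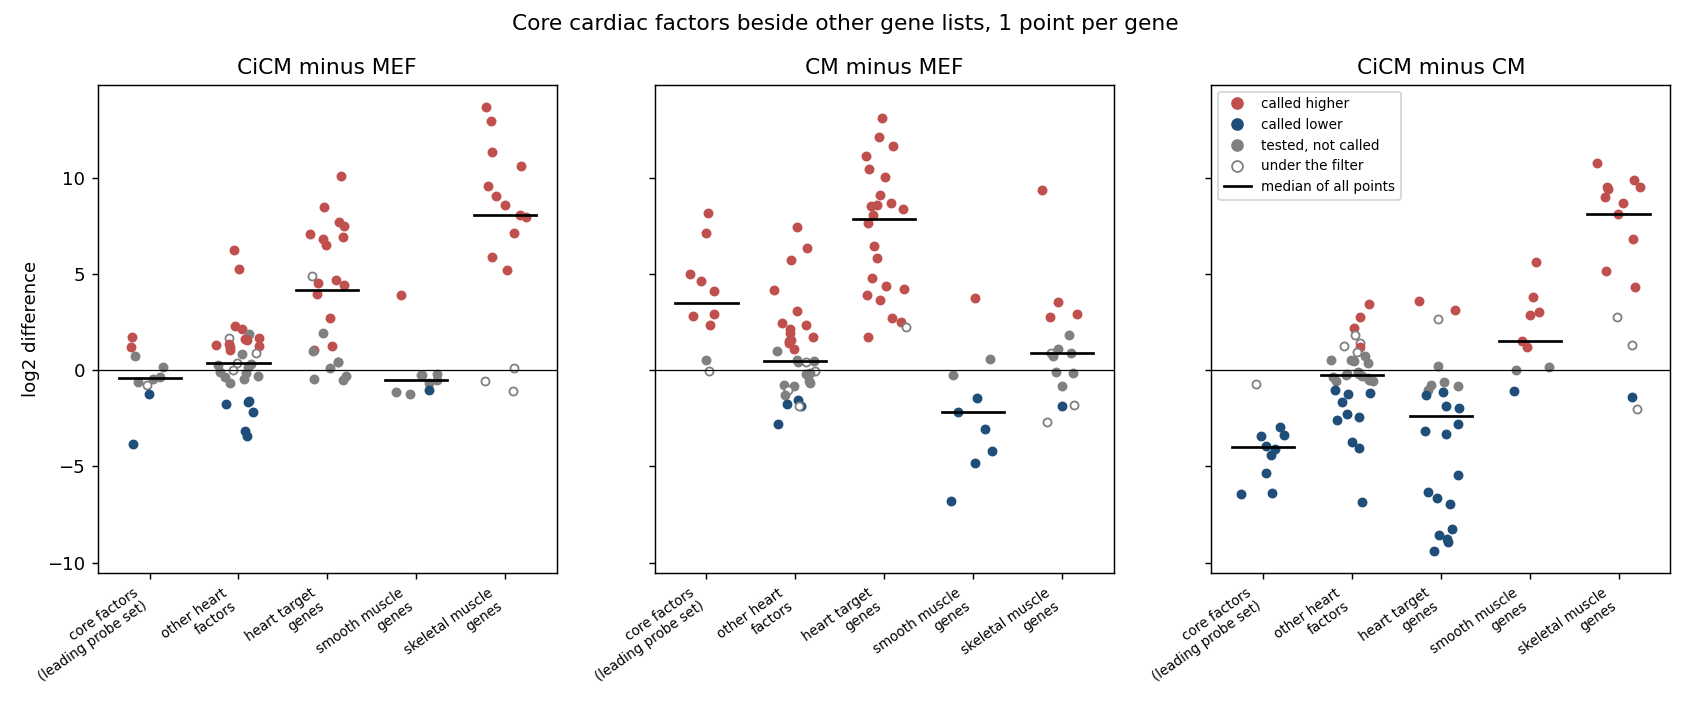
Points are genes, each drawn by its leading probe set, the y axis is the log2 difference, and the columns are the core factors, other heart factors, heart target genes, smooth muscle genes and skeletal muscle genes in the 3 comparisons. Red points were called higher, blue lower, grey not called, open points lay under the filter, and black bars are medians of all points; in CiCM minus MEF the heart target genes spread up to 10.09 while the core factors lie between -3.86 and 1.71.

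Heart genes that these factors are known to activate were called higher in the induced cells only in part. Of 25 such genes, written down from general knowledge, 23 were tested. In CiCM against MEF 15 were called higher, none lower and 8 not called, with a median of 3.94, beside 11.6% higher and 12.3% lower among all genes. Besides Nppa and Ryr2, those not called were Myl7 (1.00), Mybpc3 (0.45), Gja1 (0.41), Slc8a1 (-0.33), Cacna1c (-0.45) and Nppb (-0.50). In CM against MEF 23 of 23 were called higher (22.2% of all genes), with a median of 8.05. Several of the 23, Tnni3 and Ryr2 among them, passed the filter only through their CM mean, so the filter favours a difference from CM. Ttn was higher in CiCM by 10.09, Myl2 by 8.46, Casq2 by 7.72 and Myl4 by 7.48, and Tnnt2 and Actc1 by 6.90 and 6.51. The MEF readings of Ttn, Myl2 and Casq2 lay under 6.58 (2.04, 3.86 and 5.47 for Ttn, for example), so the sizes of their differences depend on noisy low signals. Those of Myl4, Tnnt2 and Actc1 lay above it. With 32 added to the linear signals, the differences were 8.23 for Ttn, 7.35 for Myl2, 6.94 for Casq2 and 7.17 for Myl4. Several of these, such as Ttn and Casq2, are also used by skeletal muscle, and the part of skeletal muscle transcripts in these differences was not tested. Ryr2, the heart's calcium release channel, read 4.93, 4.71 and 5.94 in CiCM, 13.91, 14.16 and 14.34 in CM, and 4.35, 5.65 and 5.18 in MEF. Ryr2 too was high in CM alone, with a CiCM minus MEF difference of 0.13 (limma adjusted p = 0.797). Nppa, the natriuretic peptide gene bound by GATA4, NKX2-5 and TBX5, was 1.95 without a call (limma adjusted p = 0.0709), and Myh6 was called higher by 4.53 (limma adjusted p = 0.00195). Myh6 read 6.75, 8.0 and 6.64 in CiCM, 15.41, 15.94 and 15.79 in CM, and 3.04, 0 and 4.75 in MEF, and with 32 added its CiCM minus MEF difference was 2.03. In CiCM against CM 16 of the 23 were called lower and 2 higher, beside 19.1% and 16.6% of all genes. Tnni3 (-9.38), Ryr2 (-8.95), Pln (-8.79) and Myh6 (-8.58) were lowest. The 2 higher were Myh7 (3.15) and Myl4 (3.60). Myl4 read 14.50, 14.70 and 14.54 in CiCM, 14.92, 9.67 and 8.36 in CM, and 6.63, 7.26 and 7.42 in MEF. Its difference was 5.57 without CM replicate 1 and lost its call without any other single CiCM or CM array. Gja5, the atrial and conduction connexin controlled by TBX5 and NKX2-5, lay under the filter. It read 6.92, 5.64 and 6.15 in CiCM, 5.27, 3.50 and 1.90 in CM, and 0.80, 1.56 and 1.65 in MEF, so CiCM was highest without overlap.

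Smooth muscle genes that myocardin and SRF drive were mostly not called in the induced cells and lower in heart cells. Of 9 genes, 1 was called higher in CiCM than in MEF and 1 lower, beside 11.6% and 12.3% of all genes, with a median of -0.51. In CM, where Myocd was highest, 6 of 9 were called lower than in MEF and 1 higher, with a median of -2.17. Among all genes 21.9% were called lower and 22.2% higher there. Acta2, the smooth muscle alpha-actin, read 14.20, 14.18 and 13.98 in CiCM, 12.57, 12.34 and 12.95 in CM, and 14.78, 14.77 and 14.80 in MEF. Tagln, an actin-binding protein of smooth muscle, was -1.04 in CiCM and -4.82 in CM against MEF, and without CiCM replicate 3 the first was -0.89 and not called. Synpo2 was the gene called higher, by 3.91 in CiCM and 3.75 in CM. Myh11, the smooth muscle myosin, was -0.25 in CiCM and -0.26 in CM against MEF, neither called. In CiCM against CM, 6 of the 9 were called higher and 1 lower, beside 16.6% and 19.1% of all genes. Cnn1 (5.60), Tagln (3.78) and Lmod1 (3.04) were among those higher. Cnn1, the calponin of smooth muscle, read 11.00, 10.90 and 10.39 in CiCM, 7.79, 1.34 and 6.37 in CM, and 12.03, 12.02 and 11.89 in MEF. Without CM replicate 2, the lowest of these, its CiCM minus CM difference was 3.68, and with 32 added to the linear signals that of Lmod1 was 1.94.

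The lists for neighbouring tissues gave the following counts. Among all genes by leading probe set, 11.6% were called higher and 12.3% lower in CiCM against MEF. These shares were 22.2% and 21.9% in CM against MEF, and 16.6% and 19.1% in CiCM against CM. Of 11 tested atrial genes 2 were called higher and 1 lower in CiCM against MEF, and 7 higher and none lower in CM against MEF. Of 9 ventricular genes, Irx4 among them, 4 were called higher and 1 lower in CiCM against MEF, and 8 higher in CM against MEF. None of 9 epicardial genes was called in CiCM against MEF, while 2 were called higher in CM. Of 4 tested endoderm genes, a tissue that shares GATA factors, 1 was called higher and 1 lower in CiCM, and 2 higher and 1 lower in CM. Of the cardiomyocyte genes, which overlap with the heart targets, 10 of 14 were called higher in CiCM against MEF and 11 of 14 lower in CiCM against CM. Endothelial genes were called higher in 1 and lower in 2 of 10 cases in CiCM against MEF, and fibroblast genes higher in 2 and lower in 3 of 15.

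Over the 9 arrays, the genes most like each member by Pearson's r were found among all genes past the filter. For Nkx2-5 they were Ramp2 (r = 0.997) and Rasgrf2 (r = 0.996), and for Tbx20 Adgrg1 (r = 0.997) and Mov10l1 (r = 0.993). Gata4 was nearest to Wnk2 and Ivd (both r = 0.994), Gata6 to Cd34 (r = 0.993) and Smim19 (r = 0.992), and Hand2 to Rapgef5 (r = 0.997) and Eif4e3 (r = 0.995). Irx4 was nearest to Rtn4ip1 (r = 0.993) and Ndufaf8 (r = 0.989), Myocd to Osbpl8 (r = 0.996) and Map7 (r = 0.994), and Tbx5 to Ttc7 (r = 0.992) and Ankrd13c (r = 0.985). Zfpm2 was nearest to C1qc (r = 0.987), a complement gene of macrophages, and Pot1a (r = 0.981), and Hand1 to Naca (r = 0.914) and Efna5 (r = 0.900). These are descriptions over 9 arrays that fall into 3 groups and share that structure, out of 12558 or 12559 genes searched.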

How the data were processed

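Total RNA of 3 CiCM, 3 CM and 3 MEF samples was hybridised to 1 array each after 3' amplification and biotin labelling, per the labels' protocols. The authors deposited log2 signals of 45101 probe sets; per the submitters' processing notes they come from MAS5, whose version is not given. The scale was read from the values: the mean of the linear signals, without the top and bottom 2%, was 500.003 on each array. No genome build, scan date or detection call was given in the sources used here, so batch and group cannot be told apart.

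Probe sets were named through the platform annotation (34945 with 1 symbol, 932 with several, 9160 with none, 64 controls). limma 3.58.1 in R 4.3.3 was fitted to all 9 arrays at once (lmFit, eBayes with a variance trend, no covariates, 2-sided), after leaving out the 18490 probe sets whose highest group mean was under 6.58. Since the values were log2 already, nothing was added to them. The members, the 12 lists and the tests were chosen with earlier results of these data known. Named are all member probe sets, up to 4 genes per list and comparison with the largest called difference, and Nppa, Myh6, Actc1, Tnnt2, Ryr2, Gja5, Acta2, Myh11, Mef2c, Isl1, Tbx3, Srf, Myod1 and Myog whatever their call. The heart targets not called in CiCM against MEF are named too, a choice made after seeing the data. The fit was tested on simulated data. Alternatives were the constant added to the signals, the filter, the normalization, 1 value per gene, the samples in the fit, the variance model, the minimum difference, a replicate block and each array left out. Plots used Python 3.11.15 and matplotlib 3.10.9.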

Additional observations from a re-analysis of the deposited data

How the results depend on the processing

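The 16 member probe sets higher in CM than in MEF and the 18 lower in CiCM than in CM were 15 to 16 and 17 to 18 when 1 array was left out. They fell to 8 and 9 with a filter at the 75th percentile, and were 8 and 9 genes with 1 probe set per gene or the mean over probe sets, where fewer features were tested. The 2 called higher in CiCM than in MEF became 0 with 32 or a larger constant added to the linear signals and 0 with the mean over probe sets, and 1 with arrays levelled on the 18 hybridisation controls or with only the 2 groups compared. The 3 called lower became 1 with the larger constant or with the mean over probe sets, and 5 with no minimum difference, which adds 2 Gata6 probe sets. Leaving out any 1 array kept these counts at 2 and 3. Counts of members lower in CM than in MEF and higher in CiCM than in CM were 0 in every setting run. Same-numbered samples of 2 groups did not deviate together (correlations of -0.01 to 0.05), so the numbers were not taken as pairs. The replicate block left the counts at 2 higher and 3 lower, 16 higher and 18 lower. No called member difference changed sign. Counts of the other lists were recomputed after seeing the data: heart target genes higher in CiCM than in MEF numbered 11 to 16 over 24 alternatives, other heart factors 9 to 13 higher and 5 to 7 lower, and skeletal muscle genes 12 in each. Smooth muscle genes lower in CM than in MEF numbered 5 to 7, and those lower in CiCM than in MEF 0 to 3. The number of arrays and the noise of MAS5 signals under 6.58 limit the precision. Among tested member probe sets the SE in CiCM minus MEF was largest for 1425694_at of Tbx5 (1.10), 1422219_a_at of Tbx20 (0.98) and Irx4 (0.95). For the Hand1 probe sets it was 0.85 and 1.02 without the filter.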
